A study of Homo sapiens with 4 samples.

Results

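Keratins are the intermediate filament proteins of epithelial cells. Each filament is built from heterodimers of a type I and a type II chain, so epithelia express them in pairs. Simple epithelia such as the gastric mucosa are known for KRT8 with KRT18, together with KRT7, KRT19 or KRT20. Stratified epithelia use other pairs, KRT16 and KRT17 are known as keratins of wounded or activated skin, and the hair keratins form the hair shaft.

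The keratin genes were taken as the protein-coding rows named KRT followed by a number from 1 to 86 and at most one letter. This gave 54 of the 58735 genes listed, 28 of type I and 26 of type II. KRT222, which has the same form of name but a higher number, was left out and had 0 counts in every library. The genes lay in clusters on chromosome 12 (27 genes, between positions 52168996 and 52952901, GRCh38) and chromosome 17 (27 genes, between 40697991 and 41624842). KRT18 was the 1 type I gene on chromosome 12, beside its partner KRT8.

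The counts came from 4 RNA-seq libraries labelled MKN-45, a cell line established from a human gastric cancer. In the group labelled SIX2 overexpression (2 libraries) the lentivirus used was one to overexpress SIX2, a homeobox transcription factor. The control group (2 libraries, titled NC) received a control lentivirus. All cells had been selected with puromycin for stable infection, and the promoter that drives SIX2 is not given in the sources used here. Titles number the libraries 1 and 2 within each group, and no label ties them to separate cultures: the spread behind every p-value is between these libraries and may be technical. The labels are at odds on replication, naming triplicates in one place and 2 repeats in another.

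SIX2 itself had 379 and 605 counts in the libraries labelled SIX2 overexpression, replicates 1 and 2, against 369 and 597 counts in control replicates 1 and 2. It therefore did not follow the label, and directions below are between labels, not between measured high and low SIX2. Totals ranged from 14792869 to 16777792 counts. The libraries stood apart by the number in their titles: across 16343 genes, log2 CPM correlated at 0.992 within number 2 and 0.996 within number 1, against 0.945 and 0.944 between the SIX2 and the control replicates (a correlation across genes, which are not replicates). Keratins were therefore compared both between virus labels and between numbers, each number holding 1 library of each label. The labels give the number no meaning beyond replicate. SIX2 itself was higher in number 2, by 0.64 on the log2 scale (SE 0.13, edgeR adjusted p = 0.00119), as were 22.2% of all tested genes. Its part in the keratin differences was not tested.

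Few keratins carried nearly all of the family's reads. KRT8, KRT17, KRT18, KRT7 and KRT80 together held 99.2% and 99.4% of keratin counts in SIX2 replicates 1 and 2, and 99.1% and 99.3% in control replicates 1 and 2. Of the 54 genes, 12 had a mean of at least 1 CPM (counts per 1000000 of the TMM-scaled library size), and the same number passed the filter on low counts. A further 17 had between 1 and 19 counts over the 4 libraries and never exceeded 0.634 CPM, and 25 had 0 counts. The highest of these were KRT12, a cornea keratin, with 10 and 6 counts in SIX2 and control replicates 2 and 1 and 2 in replicates 1, and KRT83, a hair shaft keratin, with 2 and 1 counts in replicates 2 and 10 and 4 in replicates 1. A count of 0 in a library allows up to 0.200 CPM at these depths.

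By class, 5 simple, 15 stratified or other epithelial, 1 sheath and 8 hair shaft keratins had any count. Of the 5 simple epithelial keratins, 3 were above 1 CPM (KRT7, KRT8 and KRT18). KRT19, a type I partner of KRT8 in many glandular epithelia, had 0 and 1 counts in SIX2 replicates 1 and 2 and 2 counts in each control. KRT20, known from the gastric surface and intestinal epithelium, had 3 and 1 counts in SIX2 replicates 1 and 2, against 0 and 4 counts in control replicates 1 and 2. Both lay at or near the level that a count of 0 allows. Of 23 stratified and other epithelial keratins, 6 passed the filter (KRT17, KRT80, KRT10, KRT16, KRT15 and KRT9). The 9 keratins of the hair follicle sheath had 1 count in all, in KRT71. Of 17 hair shaft keratins, 3 passed (KRT86, KRT34 and KRT81).

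Markers of epithelial and other cell types were looked at. The identity of the line, given the low KRT19 and KRT20 counts, was not tested. KRT8 and KRT18, themselves members of the family described here, were abundant in all 4 libraries, as given below. MUC1, an epithelial mucin, lay between 191 and 265 CPM and EPCAM, an epithelial adhesion molecule, between 8.91 and 12.2 CPM in the 4 libraries. CDH1, the epithelial cadherin, was at 20.4 and 8.05 CPM in SIX2 replicates and 22.0 and 5.32 CPM in controls. CLDN4, another epithelial marker, was at 62.1 and 50.1 CPM in SIX2 replicates and 74.2 and 31.2 CPM in controls. Of the 6 epithelial markers tested between numbers, 2 rose (KRT8 and KRT18) and 2 fell (CDH1 and CLDN4), beside 22.2% and 21.6% of all tested genes. VIM (vimentin) was at 245 and 493 CPM in SIX2 replicates and 224 and 338 CPM in controls. GRHL2, a grainyhead factor, had 1 to 4 counts per library. Immune markers PTPRC and CD3E and the endothelial marker KDR had 0 counts. The 5 immune markers summed to between 2.91 and 3.71 CPM per library and the 4 endothelial markers to between 8.62 and 13.4 CPM. The 7 fibroblast markers summed to 279 and 289 CPM in number 2 (SIX2 and control) and to 62.0 and 58.6 CPM in number 1, nearly all of it COL1A1, while COL1A2, COL6A3 and THY1 had at most 1 count in any library. Of the 4 tested between numbers 2 rose and 1 fell (22.2% and 21.6% of all tested genes did by the same test, edgeR with an adjusted p under 0.05), and their part in the keratin differences was not tested. The 1 that fell, FAP, had 40 and 29 counts in SIX2 and control replicates 1, and 1 and 0 counts in replicates 2. FAP passed the filter on low counts only through number 1. In bulk RNA, fewer cells of a type and less RNA per cell cannot be told apart.

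Per length, KRT8, KRT17 and KRT18 were the most abundant. In TPM (counts per kilobase of exon, scaled to the same total in each library), KRT17 was at 2140 in SIX2 replicate 2 and 1029 in control replicate 2, and at 1018 in SIX2 replicate 1 and 1075 in control replicate 1. KRT8 was at 1680 and 1362 TPM in SIX2 and control replicates 2, and at 834 and 854 TPM in replicates 1. KRT18 was at 1557 and 1252 TPM in SIX2 and control replicates 2, and at 798 and 849 TPM in replicates 1. KRT17 thus led in 3 libraries and KRT8 in control replicate 2. KRT8 is listed with 6881 exon bases because some annotated transcripts start far upstream, while its principal transcripts have a median of 1882 bases. With principal transcript lengths (an alternative chosen after seeing the data) KRT8 led in all 4 libraries, so the order of these genes depends on the length used.

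**Figure D1:**
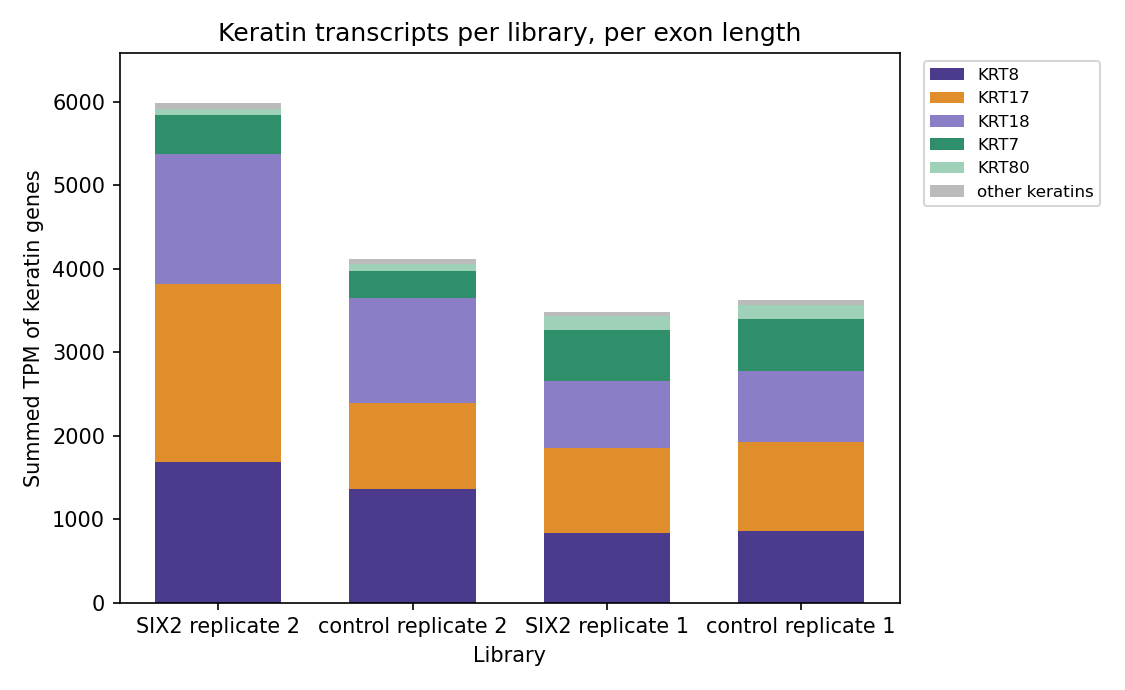
Summed TPM of all keratin genes (vertical axis) in each library (horizontal axis), stacked by gene; each bar is 1 library, with no error bar. The stack is tallest in SIX2 replicate 2 at 5983 TPM, against 4111 in control replicate 2, and reaches 3480 and 3625 in SIX2 and control replicates 1.

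Summed over the family, keratins took 7869 CPM in SIX2 replicate 2 and 5349 CPM in control replicate 2, and 4413 and 4539 CPM in SIX2 and control replicates 1. Simple keratins held 72.0% and 80.0% of keratin counts in SIX2 and control replicates 2, and 72.9% and 72.3% in replicates 1. Control replicate 2 thus had the highest simple share. It had the lowest share of stratified and other epithelial keratins, 19.9% against 27.0% to 27.9% in the other 3 libraries. In control replicate 2 that class summed to 1064 CPM, of which KRT17 alone held 934 CPM.

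The balance of type II to type I chains was lowest in SIX2 replicate 2 by either length. The ratio of summed levels, type II over type I, was 0.590 in SIX2 replicate 2 and 0.760 in control replicate 2, and 0.869 and 0.835 in SIX2 and control replicates 1. With principal transcript lengths it was 0.954 and 1.22 in SIX2 and control replicates 2, and 1.23 and 1.19 in replicates 1. KRT8 over KRT18, the classical pair, stayed between 1.01 and 1.09 in the 4 libraries (1.70 to 1.84 with principal lengths). KRT17 over KRT18 did not: it was 1.37 and 0.822 in SIX2 and control replicates 2, and 1.28 and 1.27 in SIX2 and control replicates 1.

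Some members are close in sequence, which limits how well reads can be assigned. The stretches below are 60 coding bases at the end of the central rod of 3 type I chains, shown to let the near-identical KRT17 and KRT16 be compared with KRT18. They were read from the GENCODE 29 transcripts (GRCh38), and the 21 capitals mark the core of the helix termination motif, located by translating the coding sequence. All lie in exon 6: KRT18 at chr12:52952275-52952334 (plus strand), KRT17 at chr17:41620664-41620723 (minus strand) and KRT16 at chr17:41610336-41610395 (minus strand).
KRT18: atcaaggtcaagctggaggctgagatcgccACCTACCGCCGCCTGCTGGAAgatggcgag
KRT17: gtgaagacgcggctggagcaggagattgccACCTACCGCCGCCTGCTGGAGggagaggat
KRT16: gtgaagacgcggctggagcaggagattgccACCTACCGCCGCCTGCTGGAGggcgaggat

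KRT17 and KRT16 matched at 59 of 60 bases of the stretch, and KRT17 and KRT18 at 43 of 60. Over aligned coding sequences KRT17 and KRT16 shared 84.5% of bases, with a longest identical run of 61 bases. The hair keratins KRT81 and KRT86 shared 94.6% of aligned coding bases and an identical run of 605 bases, so their counts are uncertain as single genes. KRT8 and KRT7 shared 80.8%, with a longest run of 41 bases. Pseudogenes had few counts beside the abundant genes. The 50 KRT8 pseudogenes held between 284 and 369 counts per library, or 0.507% to 1.31% of the KRT8 count, and those of KRT18 and KRT17 at most 0.413%. How reads matching several genes were counted is not known, so these counts do not show how many reads were shared or dropped. KRT16 was less secure, since its 6 pseudogenes held 4 and 31 counts in SIX2 replicates 1 and 2 and 1 and 10 in control replicates 1 and 2, up to 34.4% of the KRT16 count. KRT8 and KRT18 also share 525 exon bases on opposite strands, which is 16.3% of the exon bases of KRT18, and with no strand setting given, reads from these bases cannot be told apart. KRT7 overlaps the antisense gene KRT7-AS over 282 exon bases.

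Between numbers, KRT8, KRT18 and KRT10 were higher in number 2, and KRT80, KRT34, KRT15 and KRT7 were lower. Of the 12 keratins tested, 3 rose and 4 fell by edgeR's quasi-likelihood test, beside 22.2% of all 16343 tested genes that rose and 21.6% that fell. In either direction 7 of 12 keratins were called, beside 43.8% of all tested genes. Among the 4 that fell was KRT34, which passed the filter on low counts only through number 1. The median log2 change was 0.09 over the 12 and 0.01 over all tested genes. P-values here measure the spread between the SIX2-labelled and the control library of a number. Where numbers are said below not to overlap, this only describes the libraries, and the share over all tested genes is not given here.

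**Figure D2:**
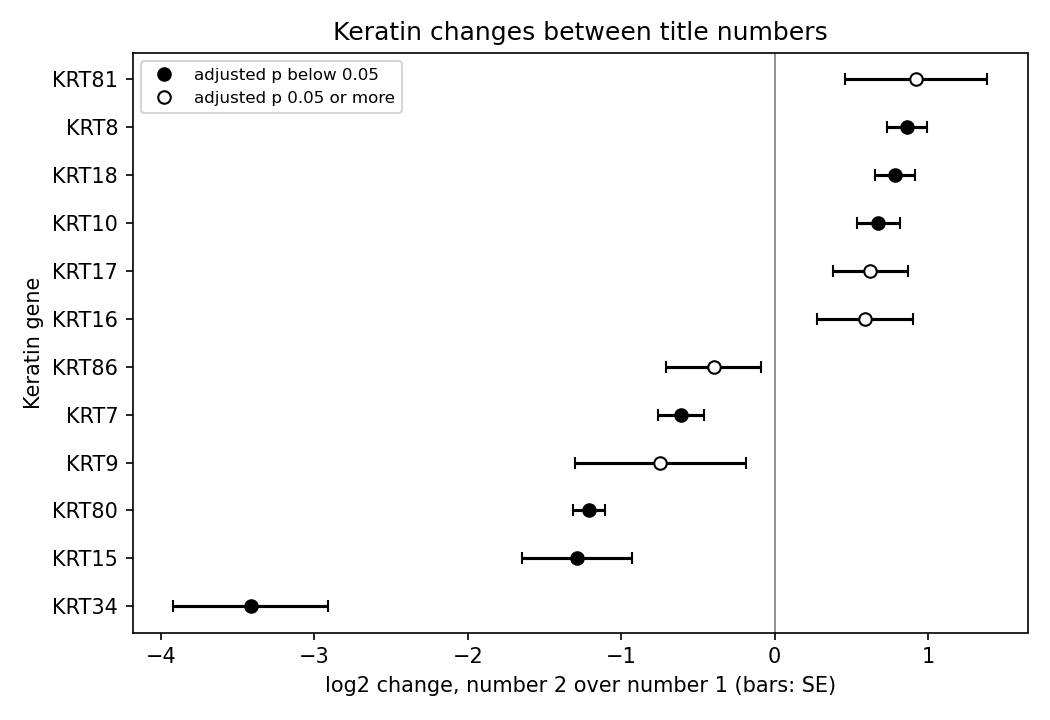
Log2 change of the 12 tested keratins (rows), number 2 over number 1, with bars for the SE; filled points passed an adjusted p of 0.05 by edgeR's quasi-likelihood test. The changes run from -3.41 for KRT34 to 0.92 for KRT81, with 3 filled points to the right of 0 and 4 to the left.

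The simple pair rose together. KRT8 (ENSG00000170421, chromosome 12, 52897187 to 52949954, minus strand), the type II chain of simple epithelia, was at 3549 and 2719 CPM in SIX2 and control replicates 2, and at 1707 and 1735 CPM in SIX2 and control replicates 1. Its level was 3134 ± 587 CPM over the libraries of number 2 and 1721 ± 19.6 CPM in number 1 (SD, n = 2 each), which is 0.87 on the log2 scale (SE 0.13, edgeR adjusted p = 0.00015). Both libraries of number 2 lay above both of number 1. KRT18 (ENSG00000111057, chromosome 12, 52948871 to 52952901, plus strand), its type I partner, was at 1538 and 1169 CPM in SIX2 and control replicates 2, and at 763 and 807 CPM in SIX2 and control replicates 1. The log2 change was 0.79 (SE 0.13, edgeR adjusted p = 0.000344), again with no overlap between numbers.

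The third abundant simple keratin, KRT7 (ENSG00000135480, chromosome 12, 52232520 to 52252186, plus strand), moved the other way. This type II chain of glandular and ductal epithelia was at 580 and 393 CPM in SIX2 and control replicates 2, and at 744 and 742 CPM in SIX2 and control replicates 1. The log2 change was -0.61 (SE 0.15, edgeR adjusted p = 0.00529), and the numbers did not overlap. Within the type II simple chains, KRT7 over KRT8 was 0.275 and 0.243 per exon length in SIX2 and control replicates 2, against 0.733 and 0.719 in SIX2 and control replicates 1.

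Stratified and other epithelial keratins moved in both directions. KRT80 (ENSG00000167767, chromosome 12, 52168996 to 52192000, minus strand), a widely expressed type II epithelial keratin next to the KRT7 end of the cluster, was at 94.3 and 94.8 CPM in SIX2 and control replicates 2, and at 215 and 223 CPM in SIX2 and control replicates 1. It fell by 1.21 on the log2 scale (SE 0.10, edgeR adjusted p = 1.27e-06), with a far smaller spread within numbers than between them. KRT10 (ENSG00000186395, chromosome 17), a type I keratin of differentiating epidermis, was at 35.4 and 29.5 CPM in SIX2 and control replicates 2, and at 19.4 and 21.3 CPM in replicates 1, a log2 change of 0.68 (SE 0.14, edgeR adjusted p = 0.00168).

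KRT15 (ENSG00000171346, chromosome 17), a type I keratin of basal cells, had 16 and 25 counts in SIX2 and control replicates 2, and 51 and 46 counts in SIX2 and control replicates 1. It fell by 1.29 on the log2 scale (SE 0.36, edgeR adjusted p = 0.0105). The call was lost by DESeq2 (adjusted p = 0.0782) and by DESeq2 with group as a term (0.223). In edgeR the log2 change was -1.30 without control replicate 1 and -1.29 without SIX2 replicate 1, each leaving 1 library in number 1. KRT16 and KRT9 did not pass. KRT16 was at 5.70 and 3.53 CPM in SIX2 and control replicates 2, and at 2.61 and 3.54 CPM in replicates 1 (adjusted p = 0.148, edgeR). KRT9, a type I keratin of palm and sole skin, had 30 and 6 counts in SIX2 and control replicates 2, and 29 and 30 counts in SIX2 and control replicates 1 (adjusted p = 0.305, edgeR), so control replicate 2 stood alone.

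Among the hair keratins, KRT34 (ENSG00000131737, chromosome 17, 41377650 to 41382403, minus strand), a type I chain of the hair shaft, had the largest change of the 12. It had 2 and 8 counts in SIX2 and control replicates 2, and 52 and 53 counts in SIX2 and control replicates 1. The 2 counts in SIX2 replicate 2 lay under the floor of 3 counts. KRT34 passed the filter on low counts only through number 1, where it was high, so its call adds no separate support. The level was 0.303 ± 0.249 CPM over the libraries of number 2 and 3.35 ± 0.271 CPM in number 1 (SD, n = 2), and it fell by 3.41 on the log2 scale (SE 0.50, edgeR adjusted p = 0.000133). KRT81 was at 2.09 and 1.20 CPM in SIX2 and control replicates 2, and at 0.728 and 1.00 CPM in replicates 1 (adjusted p = 0.124, edgeR). KRT86 was at 3.11 and 2.33 CPM in SIX2 and control replicates 2, and at 3.10 and 4.07 CPM in replicates 1 (adjusted p = 0.327, edgeR). These last 2 genes did not pass, and they share long identical sequence.

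**Figure D3:**
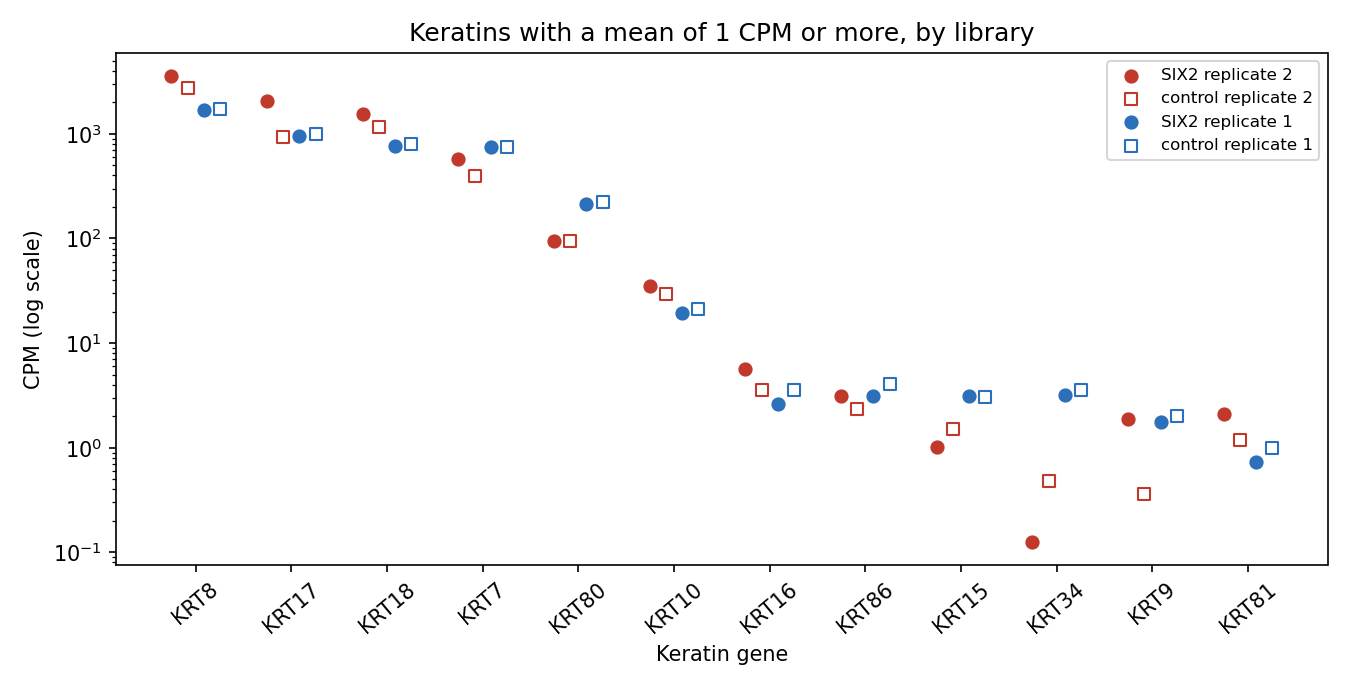
CPM (log axis) of the 12 keratins with a mean of at least 1 CPM, ordered by mean level; each point is 1 library, filled circles for SIX2 and open squares for control, red for number 2 and blue for number 1. Red and blue separate for KRT8, KRT18, KRT7, KRT80, KRT10, KRT15, KRT34 and KRT81, and for KRT17 1 red point, SIX2 replicate 2, stands above the other 3 libraries. This separation is no test, and its share over all tested genes is not given here.

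KRT17 stood apart within number 2. KRT17 (ENSG00000128422, chromosome 17, 41619441 to 41624842, minus strand), a type I keratin of basal appendage cells and of activated epithelium, was at 2056 CPM in SIX2 replicate 2 and 934 CPM in control replicate 2, and at 948 and 994 CPM in SIX2 and control replicates 1. SIX2 replicate 2 was thus the only library off a narrow range. Its change between numbers was 0.62 on the log2 scale (SE 0.25, edgeR adjusted p = 0.0554), with overlapping numbers. Leaving out SIX2 replicate 2 turned the change to -0.055, and with control replicate 2 left out it was 1.10, each with 1 library left in number 2. Without control replicate 1 or SIX2 replicate 1 it was 0.65 and 0.58, with 1 library left in number 1. With upper-quartile factors, without the filter, or with group as a term it was called, with adjusted p-values of 0.0466, 3.64e-09 and 0.00218 (edgeR). It was not called by limma-voom (adjusted p = 0.118), DESeq2 (0.464) or DESeq2 with group as a term (0.685). The KRT17 difference between numbers therefore rests on SIX2 replicate 2.

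Between virus labels, 0 of the 12 tested keratins passed by edgeR's quasi-likelihood test, beside 0% of all tested genes (0 of 16343, with 12 genes and 0 keratins at an unadjusted p under 0.05). DESeq2 and limma-voom also called 0 keratins, with 0 at an unadjusted p under 0.05. KRT17 and KRT9 had the largest log2 changes of the 12, both 0.64 (edgeR adjusted p = 1.00). KRT17 (SE 0.41) was at 1502 ± 784 CPM in the SIX2-labelled libraries and 964 ± 42.1 CPM in controls (SD, n = 2). KRT8 had 0.24 (SE 0.44), KRT18 0.22 (SE 0.41) and KRT7 0.22 (SE 0.37), each with an adjusted p of 1.00. These standard errors hold the difference between numbers, with a biological coefficient of variation of 45.0% against 9.78% when libraries were grouped by number. A missed threshold here does not show that levels were alike.

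Within a number, where each label has 1 library and there is no replicate check, the pairs differed. In number 2, 8 of the 12 keratins were at least 1.25-fold higher in the SIX2-labelled library and 2 at least 1.25-fold lower, beside 15.7% and 17.3% of all tested genes. In number 1, 0 were that much higher and 3 that much lower, beside 10.1% and 11.2%. Those 3, KRT16, KRT81 and KRT86, had counting intervals that included 1, as did KRT81 and KRT86 among the 8 higher in number 2 and KRT15 and KRT34, the 2 lower there. The highest ratio, SIX2 over control, was that of KRT9 in number 2, 5.30 (95% exact binomial interval 2.17 to 15.6), on 30 and 6 counts. The KRT17 ratio, SIX2 over control, was 2.20 in number 2 (95% exact binomial interval 2.16 to 2.24) and 0.954 in number 1 (0.933 to 0.976). KRT8 had 1.31 (1.29 to 1.32) in number 2 and 0.984 (0.968 to 1.00) in number 1. KRT18 had 1.32 (1.29 to 1.34) in number 2 and 0.947 (0.923 to 0.971) in number 1. KRT7 had 1.48 (1.43 to 1.52) in number 2 and 1.00 (0.978 to 1.03) in number 1. KRT80 had 0.995 (0.926 to 1.07) in number 2 and 0.961 (0.916 to 1.01) in number 1. Intervals cover counting error only, and the difference between pairs was not tested.

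**Figure D4:**
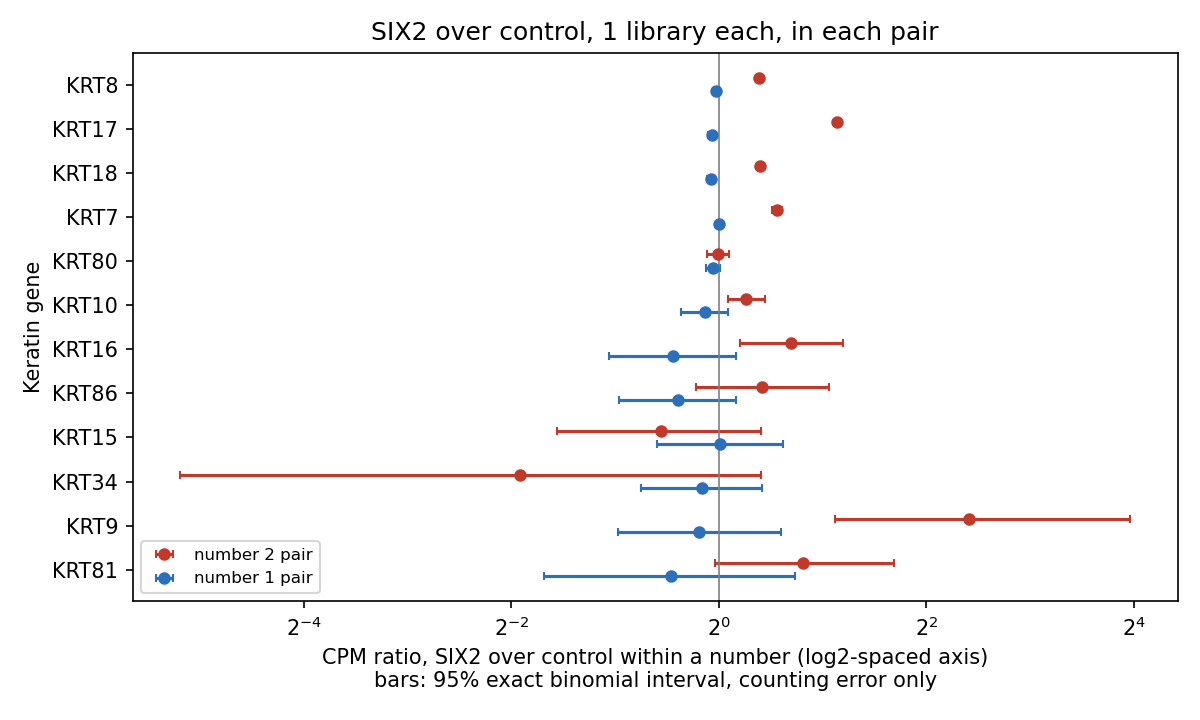
Ratio of CPM, SIX2 over control, within each number (log2-spaced axis) for the 12 keratins; points are 1 library against 1 library and bars are 95% exact binomial intervals of counting error. In red, number 2, KRT17 lies at 2.20 and KRT7, KRT8 and KRT18 between 1.31 and 1.48, while the same genes in blue, number 1, lie between 0.947 and 1.00.

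The change within a number also varied with gene length. Across the 16343 tested genes the Spearman correlation of the change with listed exon length was -0.24 in number 2 and 0.15 in number 1 (a description across genes that share the same libraries). Genes with 2 to 4 kilobases of exon, the range of KRT17 and KRT18, had a median log2 change of 0.11 in number 2 and -0.04 in number 1. Of these 4381 genes, 1.78% had a ratio at least as high as that of KRT17 in number 2, and 56.7% in number 1. The part of length in the keratin ratios was not tested.

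Other genes of the filament system were described by lists. Of 15 other intermediate filament genes, 10 were tested between numbers, 5 rose and 2 fell, beside 22.2% and 21.6% of all tested genes, with a median log2 change of 0.71 against 0.01 over all tested genes. NES, which encodes nestin, was at 34.5 and 37.0 CPM in SIX2 and control replicates 2 and at 9.89 and 9.95 CPM in replicates 1, a log2 change of 1.85 (SE 0.14, edgeR adjusted p = 4.21e-07). SYNM (synemin) rose by 1.12 on the log2 scale and LMNB1 (lamin B1) by 0.59 (adjusted p = 4.23e-06 and 0.000474, edgeR). Of 15 genes that link keratins to desmosomes or to other parts of the cytoskeleton, 13 were tested, 3 rose and 6 fell (22.2% and 21.6% over all tested genes), with a median of -0.29. Among the 3 that rose, DSC3 had 16 and 21 counts in SIX2 and control replicates 2, and 3 and 4 counts in replicates 1. DSC3 passed the filter on low counts only through number 2. The desmosomal cadherin DSG2 fell by 1.01 (SE 0.11, edgeR adjusted p = 1.46e-05), the plakophilin PKP2 by 0.91 (adjusted p = 7.68e-05) and desmoplakin, DSP, which anchors keratins at desmosomes, by 0.79 (adjusted p = 0.000148).

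Genes of the squamous cell envelope were mostly at 0 or below 1 CPM. Of 18 cornified envelope genes 8 had 0 counts and 15 stayed below 1 CPM in every library. The 3 tested all passed between numbers, where 43.8% of all tested genes did: SFN (stratifin) and CNFN (cornifelin) rose by 0.89 and 2.91 on the log2 scale, and the transglutaminase TGM1 fell by 1.00 (adjusted p = 0.000114, 0.000151 and 0.000148, edgeR). CNFN had 61 and 49 counts in SIX2 and control replicates 2, and 9 and 5 counts in replicates 1. It passed the filter on low counts only through number 2, where it was high, so its call adds no separate support. Of 17 transcription factors of epithelial and hair differentiation, 13 were tested, 0 rose and 8 fell, with a median of -0.43. Over all tested genes 22.2% rose and 21.6% fell. GRHL1, a grainyhead factor of the epidermis, was at 2.92 and 2.09 CPM in SIX2 and control replicates 2 and at 12.6 and 12.3 CPM in replicates 1. FOXN1 and HOXC13, both known as regulators of hair keratins, fell by 1.37 (SE 0.12) and 1.51 (SE 0.16) on the log2 scale (adjusted p = 1.74e-06 and 6.45e-06, edgeR). HOXC13 was at 17.9 and 13.0 CPM in SIX2 and control replicates 2, and at 42.1 and 45.9 CPM in replicates 1. Between virus labels 0 members of these 4 lists passed.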

How the data were processed

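RNA had been extracted with Trizol and made into libraries with an Illumina TruSeq RNA kit, per the labels' protocols. The authors deposited raw counts per Ensembl gene, not normalized, 1 file per library, per the file headers. No aligner, counter or strand setting is given in the sources used here. A mouse build (mm9) stands in the submitters' processing notes, but all 58735 identifiers were found in human GENCODE 29 (GRCh38), 58724 with the same coordinates, and the listed length of all 54 keratins equalled their merged exons.

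The tests ran in edgeR 4.0.16 under R 4.3.3 (filterByExpr, which left 16343 genes, TMM factors, glmQLFit and glmQLFTest), fitted over all genes with Benjamini-Hochberg adjustment and a threshold of 0.05. CPM use TMM-scaled library sizes. Limma 3.58.1 (voom) and DESeq2 1.42.0 served as alternatives, with upper-quartile factors, no filter and each library left out. Within-number shares of all genes used counts plus 0.5. The fit was tested on simulated data. Floors are 3 counts per library, and floors and intervals cover counting error only.

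Keratins with a mean of at least 1 CPM were named, and up to 3 called members of each related list with the smallest adjusted p. The members and lists were chosen with earlier results of these data known. Sequence stretches of type II keratins are not reported here.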

Additional observations from a re-analysis of the deposited data

Results flagged for a closer look

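For 2 keratins the libraries labelled SIX2 overexpression lay above the control in number 2 and below it in number 1, with both counting intervals off 1. These intervals cover counting error only and are narrow for abundant genes. The share of all tested genes that meet the same rule is not given here. KRT17 had a ratio, SIX2 over control, of 2.20 in number 2 and 0.954 in number 1. Of the genes with 2 to 4 kilobases of exon, 1.78% had a ratio at least as high in number 2, and 56.7% in number 1. KRT18 had a ratio of 1.32 in number 2 and 0.947 in number 1. Each number holds 1 library per label, so the difference between numbers was not tested.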

How the results depend on the processing

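Between virus labels, 0 keratins were called under all 10 alternatives. Over all genes 8 were called with title number as a replicate block, 6 higher and 2 lower, and 0 otherwise. The number pairs the libraries only by name, the labels give it no meaning, and with that block KRT17 had a log2 change of 0.54 (adjusted p = 0.256, edgeR). Deviations from group means correlated at 0.878 across genes between libraries of the same number. DESeq2 with the same terms called 0 genes.

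Between numbers, DESeq2 called 6 of 29 tested keratins and 5630 of 30912 genes, and with group as a term 6 of 29 and 3932 genes. Without the filter edgeR called 8 of 29 keratins and 7510 of 30912 genes. Of 12 tested keratins and 16343 genes, edgeR with upper-quartile factors called 8 and 7172. With group as a term edgeR called 8 and 6955 of these, and limma-voom called 7 and 7132. The summed keratin CPM, number 2 over number 1, was 1.48 (1.20 to 1.76 without 1 library) and 1.08 without KRT8 and KRT18. KRT8, KRT18, KRT10, KRT7, KRT80 and KRT34 kept their direction under all 10 alternatives, and their call under those that used all 4 libraries.

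Leaving out 1 library unbalances the numbers, so the change between labels then takes in that between numbers. It also leaves 1 library in a number, so between numbers only the size of the change is given. Ranges that crossed 0 between labels were -0.39 to 0.67 for KRT8, -0.026 to 1.09 for KRT17, -0.37 to 0.64 for KRT18, -0.16 to 0.76 for KRT7, -0.76 to 0.71 for KRT80, -0.39 to 0.47 for KRT10, -0.44 to 0.69 for KRT16, -0.39 to 0.41 for KRT86, -1.17 to 0.46 for KRT15, -3.91 to 1.77 for KRT34, -0.12 to 2.33 for KRT9 and -0.59 to 0.92 for KRT81. KRT86 was also at 0.019 with limma-voom and 0.013 with DESeq2 and the number block. Between numbers the range crossed 0 for KRT17 (-0.055 to 1.10) and KRT9 (-2.36 to 0.033). KRT9 was at -2.36 without SIX2 replicate 2, and KRT16 and KRT81 at 0.91 and 1.29 without control replicate 2 (log2 change between numbers, edgeR). Depth limits the hair keratins and KRT9, KRT15 and KRT16, which had under 100 counts per library.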
